A study of Mus musculus with 12 samples.

Results

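Water and ion channels of the choroid plexus (CP) were followed in mouse CP tumors and wild-type CP. The set was named by gene: Aqp1, Trpv4, Kcne2, Kcnq1, Kcnj13, Trpm3 and Clic6. Its members were the probes that carry one of these 7 gene symbols, 17 of the 45281 probes on the array. They represented 6 of the 7 genes, since no probe carried the symbol Kcnj13. Of the 17 probes, 15 rose above background on at least 3 of 12 arrays and were tested, among 20021 probes tested in all. These 15 covered Aqp1, Trpv4, Kcne2, Trpm3 and Clic6.

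The samples, 4 groups of 3, were hybridized to Illumina mouse BeadChips. The P0 tumors were CP tumors of the hindbrain from newborn mice (postnatal day 0) that carried Math1-cre and Rosa26-NICD1. Hindbrain CP of newborn wild-type mice served as their control. The P21 tumors came from mice with the same alleles at postnatal day 21, with wild-type hindbrain CP of that age as control. In the tumor mice Cre is made where the Math1 (Atoh1) promoter is active, and there it releases expression of NICD1, the cut and active inner part of the receptor Notch1. All mice were C57BL/6, and every sample was a pool from several animals. How many is not stated, so the p-values measure the spread between 3 pools, part of which may be technical. The P0 arrays shared a BeadChip and the P21 arrays shared a different one, which means that age and BeadChip cannot be told apart. Tumors took array positions A to C and wild-type CP positions D to F, so position and genotype cannot be told apart either.

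The CP is a sheet of epithelium in the brain ventricles that secretes cerebrospinal fluid. Ion pumps and cotransporters move sodium, chloride and bicarbonate into the ventricle, and water follows. AQP1 is the water channel of the ventricle-facing (apical) membrane. Potassium channels in that membrane let the potassium taken up by the sodium pump leave again, among them Kir7-type channels encoded by Kcnj13 and channels whose subunits include KCNQ1 and KCNE2. TRPV4 and TRPM3 are calcium-permeable cation channels. TRPV4 responds to osmotic and mechanical stimuli, and TRPM3 to the steroid pregnenolone sulfate and to heat. CLIC6 belongs to the chloride intracellular channel family and is abundant in CP epithelium.

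Median raw signals were 134 to 179.9 per array, and the number of arrays limits the precision. Transthyretin (Ttr) and the CP transcription factor gene Otx2 were detected on all 12 arrays and did not pass in either tumor comparison (Ttr -0.04 log2 at P0 and -0.11 at P21, Otx2 -0.03 and -0.20). They do not stand for every epithelial marker. Among 18 tested CP epithelial markers, 3 passed as lower in P0 tumors and 5 in P21 tumors, with 0 higher at either age. Of all genes tested, 5.46% passed as lower and 4.47% as higher at P0, and 6.66% and 9.91% at P21. The summed signal of the 18 markers was lower in every P21 tumor sample than in any P21 wild-type sample, while the P0 ranges overlapped. P0 wild-type sample 1 stood apart. On it 891 tested probes that were detected on the 11 other arrays were not detected, against 12 to 86 such probes on each other array, and 2 of the 891 were Trpv4 probes. P21 tumor sample 1 also stood apart, with a summed normalized signal of 50936 over 6 neuron markers, against 1286 to 3013 on the other 11 arrays. Many of the results that rest on either array are given with and without it, though not every list count.

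The P0 comparison asked how channel expression in newborn tumors differed from that in CP of the same age. At P0 the transcripts of Aqp1, Trpv4 and Kcne2 and the signal of some Trpm3 probes were lower in tumors. Kcne2 passed narrowly (limma adjusted p = 0.0485), and Clic6 did not pass. By limma's moderated test with Benjamini-Hochberg adjustment over all probes, 7 of the 15 channel probes were lower at an adjusted p under 0.05 and 0 were higher (7 and 0 at an unadjusted p under 0.05). Over all tested probes 9.08% passed, 4.96% lower and 4.12% higher. The median log2 difference of the 15 probes was -0.57, against -0.02 over all tested probes. Probes of one gene are not independent, and 7 of the 15 belong to Trpm3. The members were also chosen with earlier results of these data known. On 8 of the 15 probes all 3 tumor values lay below all 3 wild-type values, and on 0 above, while 22.8% of all tested probes had groups without overlap, 12.9% with the tumors lower. Without P0 wild-type sample 1, 6 channel probes passed.

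The P21 comparison asked the same question at 21 days of age. The falls of Aqp1, Trpv4 and Kcne2 were deeper in size there, at 3.32-fold to 6.93-fold on the probes that passed. By limma's interaction test, given below, that change with age did not pass for Kcne2 or for most probes of Aqp1 and Trpv4. At P21, 8 of the 15 probes were lower and 0 were higher (11 and 0 at an unadjusted p under 0.05), where 14.8% of all tested probes passed, 6.42% lower and 8.4% higher. The median log2 difference was -1.14, against -0.07 over all tested probes, with the same limits as at P0. The groups did not overlap on 11 of the 15 probes, all with the tumors lower, where 42.9% of all tested probes had groups without overlap, 24.2% with the tumors lower. Without P21 tumor sample 1, 6 channel probes passed, and without P0 wild-type sample 1, whose spread enters the shared error, 11 did.

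**Figure D1:**
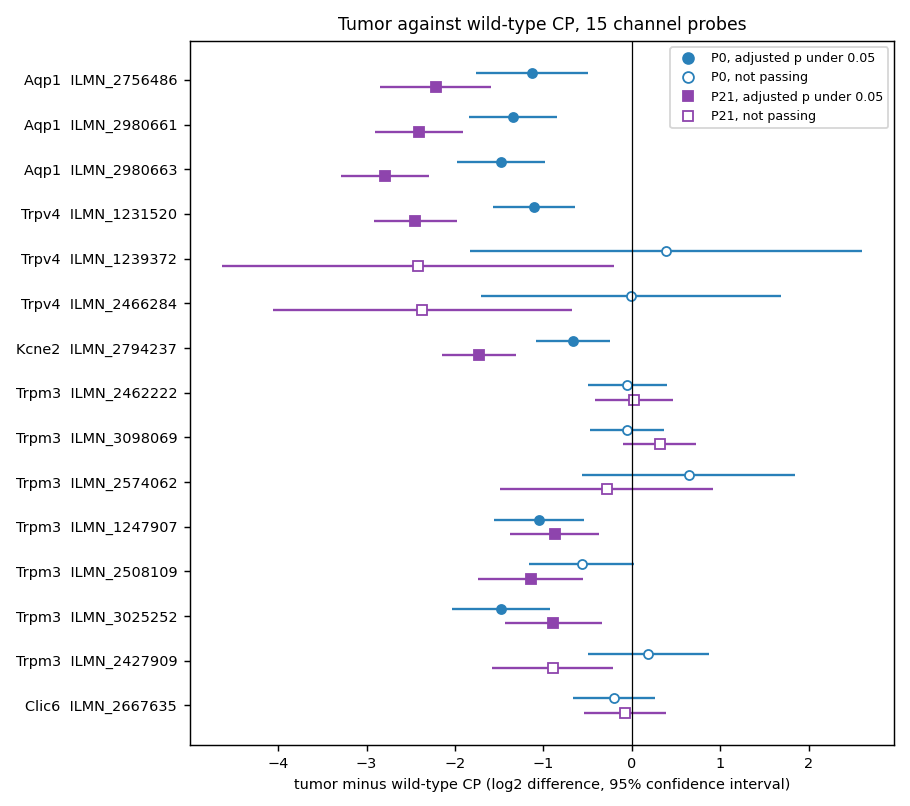
Log2 difference of tumor minus wild-type CP for each of the 15 tested channel probes (points) with 95% confidence intervals (lines), at P0 and at P21; filled points have an adjusted p under 0.05. The 3 Aqp1 probes, 1 Trpv4 probe and the Kcne2 probe are filled left of 0 at both ages, and Clic6 lies near 0.

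The promoters of Aqp1, Trpv4 and Kcne2 are shown because the brightest probe of each was lower at both ages. Some dimmer Trpm3 probes were lower at both ages too, but its brightest probe was not. Each runs from 250 bases before to 50 bases after a transcription start in RefSeq on GRCm38.p6, 5′ to 3′ on the gene's strand. Promoters were found for 5 of the 7 members, 7 windows in all. They were searched on both strands for TAATCC, the core of sites bound by the CP transcription factor OTX2, and for TGGGAA, the core of sites bound by RBPJ, the DNA-binding partner of the Notch intracellular domain. The 2 motifs share no position in these windows, in which 1 match was found. It is the RBPJ core in the Aqp1 promoter, on the minus strand and shown in capitals, 135 bases before the start. Of 32851 RefSeq promoters of this length, 25.6% hold the RBPJ core and 7.06% the OTX2 core.
Aqp1 (chr6:55336049-55336348, plus strand): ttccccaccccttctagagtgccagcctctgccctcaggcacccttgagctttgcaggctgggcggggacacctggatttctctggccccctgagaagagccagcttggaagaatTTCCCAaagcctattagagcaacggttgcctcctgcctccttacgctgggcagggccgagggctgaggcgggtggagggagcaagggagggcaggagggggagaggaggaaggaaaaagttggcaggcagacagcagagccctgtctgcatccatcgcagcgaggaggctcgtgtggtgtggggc
Trpv4 (chr5:114658372-114658671, minus strand): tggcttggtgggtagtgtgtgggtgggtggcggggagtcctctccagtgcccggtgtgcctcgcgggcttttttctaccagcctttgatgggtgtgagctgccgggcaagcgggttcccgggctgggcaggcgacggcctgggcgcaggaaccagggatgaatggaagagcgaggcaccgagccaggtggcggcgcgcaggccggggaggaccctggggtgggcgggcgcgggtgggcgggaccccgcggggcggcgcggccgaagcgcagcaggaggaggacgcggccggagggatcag
Kcne2, first start (chr16:92292139-92292438, plus strand): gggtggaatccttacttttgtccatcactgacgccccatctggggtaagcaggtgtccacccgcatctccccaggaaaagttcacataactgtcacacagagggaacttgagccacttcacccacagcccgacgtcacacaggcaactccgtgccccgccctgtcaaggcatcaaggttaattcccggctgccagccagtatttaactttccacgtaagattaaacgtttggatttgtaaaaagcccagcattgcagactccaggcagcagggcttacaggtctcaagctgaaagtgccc
Kcne2, second start (chr16:92295366-92295665, plus strand): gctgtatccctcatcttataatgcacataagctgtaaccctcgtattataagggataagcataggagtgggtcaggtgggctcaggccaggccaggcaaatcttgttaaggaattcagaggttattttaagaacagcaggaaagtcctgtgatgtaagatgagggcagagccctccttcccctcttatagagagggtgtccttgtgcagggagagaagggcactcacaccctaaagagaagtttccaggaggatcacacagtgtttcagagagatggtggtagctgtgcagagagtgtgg
A match is a run of letters and not a measured binding site, and RBPJ or OTX2 binding was not measured.

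Aqp1 had 3 probes, all annotated to the transcript NM_007472, and its brightest probe ranked above 97.1% of all probes on every array. The raw signal of that probe reached up to 77.2% of the highest signal on the array, so its differences could be compressed. In P0 tumors that probe, ILMN_2756486, had normalized log2 signals of 13.76, 14.86 and 14.19, against 14.97, 15.79 and 15.44 in P0 wild-type CP. In P21 tumors it had 12.74, 12.43 and 12.93, against 14.97, 14.78 and 15.01 in P21 wild-type CP. All tumor values lay below all wild-type values of the same age, narrowly at P0, where tumor sample 2 came close to wild-type sample 1, and widely at P21. The difference was -1.13 ± 0.29 log2 at P0 (limma adjusted p = 0.031, 3 samples a group), or 2.19-fold lower, and -2.22 ± 0.29 at P21 (adjusted p = 0.000253), or 4.66-fold lower. The error after each ± of a difference is the SE of the fit, for which the 12 arrays share one spread. The P0 call of this probe ended without P0 tumor sample 1 or 3 (adjusted p = 0.111 and 0.104), P0 wild-type sample 2 or 3 (0.0761 and 0.0822) or P21 wild-type sample 1 (0.0505), and with only the 6 P0 arrays fitted (0.149). In tissue samples such as these, fewer epithelial cells and less Aqp1 RNA per cell cannot be told apart, and this holds for every gene below.

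The other Aqp1 probes gave the same direction, with tighter groups at P0. At P21 their tumor values spread more than those of the brightest probe (SD 0.42 and 0.39, against 0.25). ILMN_2980661 had 13.34, 13.50 and 13.36 log2 in P0 tumors, against 14.47, 14.84 and 14.92 in P0 wild-type CP. It had 11.65, 11.40 and 12.22 in P21 tumors, against 14.24, 14.27 and 13.97 in P21 wild-type CP. Neither age showed overlap, and P21 tumor sample 3 was the highest of its group on all 3 Aqp1 probes. The differences were -1.34 ± 0.23 at P0 (adjusted p = 0.00354) and -2.41 ± 0.23 at P21 (adjusted p = 2.49e-05). ILMN_2980663 had 13.13, 13.10 and 12.92 in P0 tumors, against 14.20, 14.78 and 14.60 in P0 wild-type CP, and 10.61, 10.66 and 11.30 in P21 tumors, against 13.58, 13.61 and 13.75 in P21 wild-type CP. It gave the largest fold of the channel probes that passed, 2.79-fold lower at P0 (-1.48 ± 0.23, adjusted p = 0.00188) and 6.93-fold lower at P21 (-2.79 ± 0.23, adjusted p = 7.26e-06). The calls of these probes held at both ages under each of 21 alternatives run. Without P21 tumor sample 1 the P21 differences of the 3 probes were -2.24, -2.35 and -2.67, all passing.

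**Figure D2:**
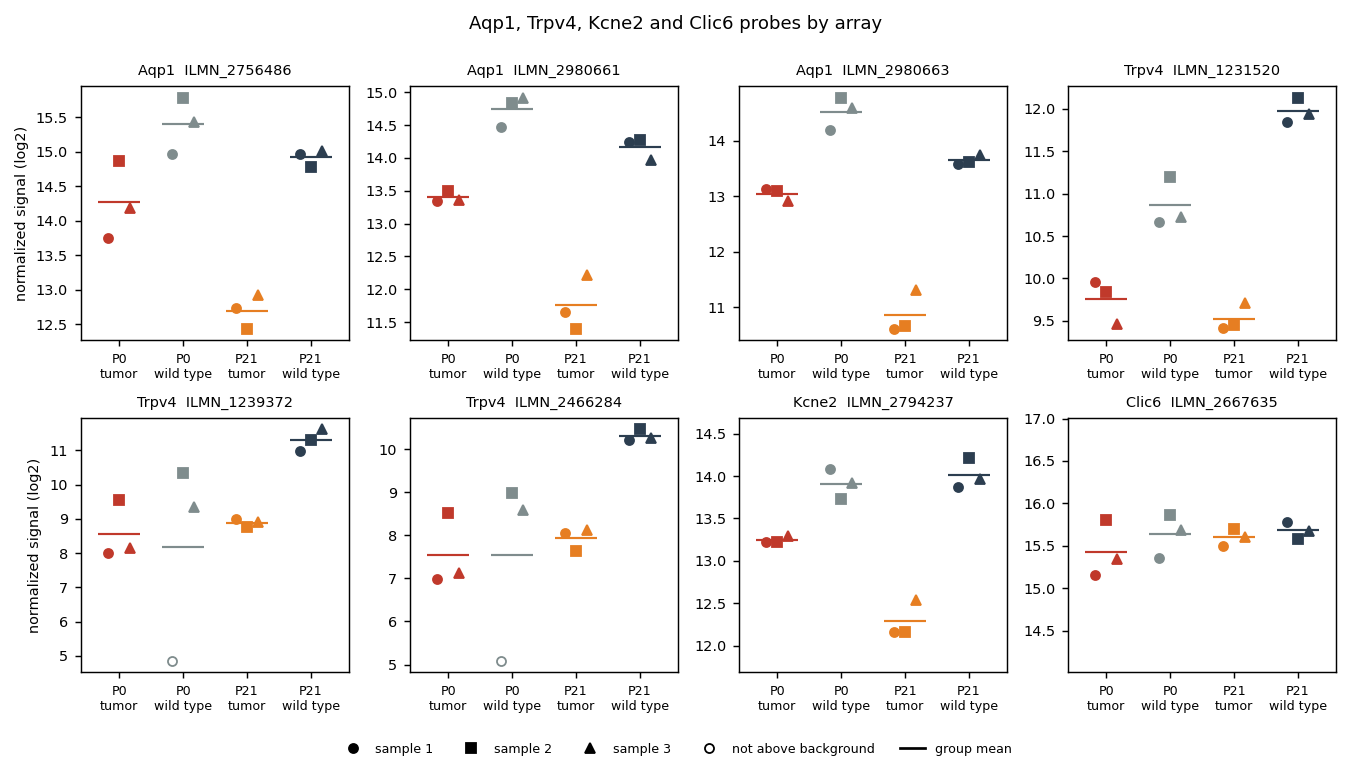
Normalized log2 signal of each Aqp1, Trpv4, Kcne2 and Clic6 probe on each array, in P0 tumor, P0 wild-type, P21 tumor and P21 wild-type CP; symbols are samples 1 to 3, lines are group means, open circles are signals not above background, and each panel has its own axis. Aqp1, Kcne2 and the first Trpv4 probe show tumors below wild-type CP at both ages without overlap, and 2 Trpv4 probes show P0 wild-type sample 1 far below the rest.

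Trpv4 was read by 3 probes, all annotated to NM_022017. The brightest, ILMN_1231520, had 9.96, 9.84 and 9.46 log2 in P0 tumors, against 10.66, 11.20 and 10.72 in P0 wild-type CP. It had 9.41, 9.45 and 9.71 in P21 tumors, against 11.84, 12.13 and 11.94 in P21 wild-type CP. No tumor value reached a wild-type value of its age, and the gap was widest at P21. The difference was -1.11 ± 0.21 at P0 (adjusted p = 0.00753), 2.15-fold lower, and -2.45 ± 0.21 at P21 (adjusted p = 1.2e-05), 5.45-fold lower. The P0 call ended with only the 6 P0 arrays fitted (0.0793) and with the mean of the 3 probes (-0.24, 0.863).

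The dimmer Trpv4 probes were not above background on P0 wild-type sample 1, where their raw signals were 122.4 and 133. ILMN_1239372 had 8.0, 9.56 and 8.15 log2 in P0 tumors, against 4.86, 10.33 and 9.35 in P0 wild-type CP, and ILMN_2466284 had 6.97, 8.51 and 7.13, against 5.09, 8.97 and 8.58. The 4.86 and 5.09 belong to wild-type sample 1, and with them the groups overlap. The P0 differences were 0.39 ± 1.02 (adjusted p = 0.866) and -0.01 ± 0.78 (0.997), and without that sample they were -1.27 ± 0.43 (0.103) and -1.24 ± 0.38 (0.0779), in neither case passing. At P21 all 3 arrays of each group detected both probes. ILMN_1239372 had 8.99, 8.77 and 8.90 in P21 tumors, against 10.99, 11.29 and 11.61 in P21 wild-type CP, and ILMN_2466284 had 8.05, 7.63 and 8.12, against 10.21, 10.45 and 10.25. The groups lay far apart, with differences of -2.42 ± 1.02 and -2.37 ± 0.78, close in size to that of the brightest probe. In the main fit, with P0 wild-type sample 1 in the shared spread, neither passed (limma adjusted p = 0.148 and 0.0624). Both passed without it, with SEs of 0.38 and 0.34 (0.00093 and 0.000508). Some alternatives that kept that sample also gave calls. With the replicate number as a block both probes passed (0.0426 and 0.0142), and with an offset of 50 ILMN_2466284 did (0.0272).

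Kcne2 encodes a small subunit that assembles with the pore-forming KCNQ1 and with other potassium channel subunits. Its one probe, ILMN_2794237, had 13.22, 13.22 and 13.29 log2 in P0 tumors, against 14.08, 13.72 and 13.92 in P0 wild-type CP. It had 12.16, 12.16 and 12.54 in P21 tumors, against 13.87, 14.21 and 13.96 in P21 wild-type CP. The groups did not overlap at either age. At P0 the difference was -0.67 ± 0.19 (adjusted p = 0.0485), 1.59-fold lower, just inside the threshold, and the call held in 8 of 23 alternatives (adjusted p from 0.0114 to 0.212). It ended without any single array other than P0 wild-type sample 2, P0 wild-type sample 1 (0.1153) and P21 tumor sample 1 (0.0558) among them. At P21 it was -1.73 ± 0.19 (adjusted p = 7.28e-05), 3.32-fold lower, and held in all 23.

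Kcnq1, the partner of Kcne2, was at the limit of detection in every group. Its probe ILMN_1237984 had raw signals of 124.6 to 161.2 over the 12 arrays and ILMN_2732707 of 118.3 to 181.7, where array medians were 134 to 179.9. Each was above background on 1 array, a P21 wild-type array, with detection p-values of 0.0395 to 0.409 and 0.0481 to 0.3301 over the arrays. Neither was tested, and no fold is given. Kcnj13 was not analysed here, as no probe carried its symbol. The RefSeq table places Kcnj13 within Gigyf2, whose own probe did not pass (0.75 log2, adjusted p = 0.494 at P0, and -0.03, 0.982 at P21).

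Trpm3 had 7 tested probes, more than any other member, and they did not move alike. The 2 brightest were ILMN_2462222, annotated to the transcript NM_001035240, and ILMN_3098069, annotated to NM_001035244. ILMN_2462222 lay between 13.24 and 13.41 log2 in P0 tumors, against 13.05 to 13.58 in P0 wild-type CP, and between 13.25 and 13.72 in P21 tumors, against 13.35 to 13.60 in P21 wild-type CP. Its groups overlapped at both ages, with differences of -0.05 (95% confidence interval -0.49 to 0.40) at P0 and 0.03 (-0.42 to 0.47) at P21. ILMN_3098069 differed by -0.05 (-0.47 to 0.36) at P0 and 0.32 (-0.10 to 0.73) at P21. Falls as deep as those of Aqp1 lie outside these intervals.

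Of the 5 dimmer Trpm3 probes, 2 were lower in tumors at P0 and 3 at P21. ILMN_3025252, annotated to NM_001035244 as is a bright probe, had 8.26, 8.71 and 8.20 log2 in P0 tumors, against 10.47, 9.60 and 9.53 in P0 wild-type CP. It had 9.38, 9.20 and 9.42 in P21 tumors, against 10.25, 10.26 and 10.15 in P21 wild-type CP. The groups were apart at both ages, by -1.48 ± 0.25 at P0 (adjusted p = 0.00354) and -0.89 ± 0.25 at P21 (0.0335). ILMN_1247907, annotated to NM_177341, had 9.42, 9.28 and 9.04 in P0 tumors, against 10.68, 10.25 and 9.96 in P0 wild-type CP, and 9.16, 9.03 and 9.44 in P21 tumors, against 10.37, 9.89 and 9.99 in P21 wild-type CP. It too showed no overlap, and fell by 1.05 ± 0.23 at P0 (0.015) and by 0.87 ± 0.23 at P21 (0.0241). Its P0 call ended without P0 tumor sample 3 (0.0705), and with only the 6 P0 arrays neither probe passed at P0 (0.0955, and 0.0509 for ILMN_3025252). Its P21 call ended without P21 tumor sample 1 or 2 (0.0633, 0.104) or P21 wild-type sample 1 or 3 (0.114, 0.0572) and with median scaling (0.0968). The P21 call of ILMN_3025252 held in 13 of 21 alternatives and ended without any single P21 array (0.0665 to 0.122).

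ILMN_2508109, annotated to NM_001035240, had 9.66, 9.76 and 9.0 log2 in P0 tumors, against 10.24, 10.11 and 9.78 in P0 wild-type CP, and did not pass (-0.57 ± 0.27, adjusted p = 0.238). In P21 tumors it had 8.92, 8.40 and 9.36, against 10.01, 10.11 and 9.98 in P21 wild-type CP, 2.21-fold lower (-1.14 ± 0.27, 0.0136). That call ended without P21 tumor sample 2 (0.0714) or P21 wild-type sample 2 (0.056). ILMN_2427909, of the same transcript, differed by 0.19 ± 0.32 at P0 (0.774) and -0.90 ± 0.32 at P21 (0.0815), where its groups did not overlap, and it passed at P21 without P0 wild-type sample 1 (0.0191). ILMN_2574062, annotated to AK032465, spread most at P0, with 9.13, 11.26 and 10.02 in tumors, against 8.30, 10.57 and 9.61 in wild-type CP, and passed at neither age (0.64 ± 0.55, 0.53, and -0.28 ± 0.55, 0.805). On this probe the samples numbered 1 were the lowest and those numbered 2 the highest in both P0 groups. Probes of one annotated transcript thus gave differences on both sides of the threshold, and the position of each along Trpm3 is not stated. The RefSeq table also places the microRNA gene Mir204 within Trpm3, and no probe carried that symbol.

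**Figure D3:**
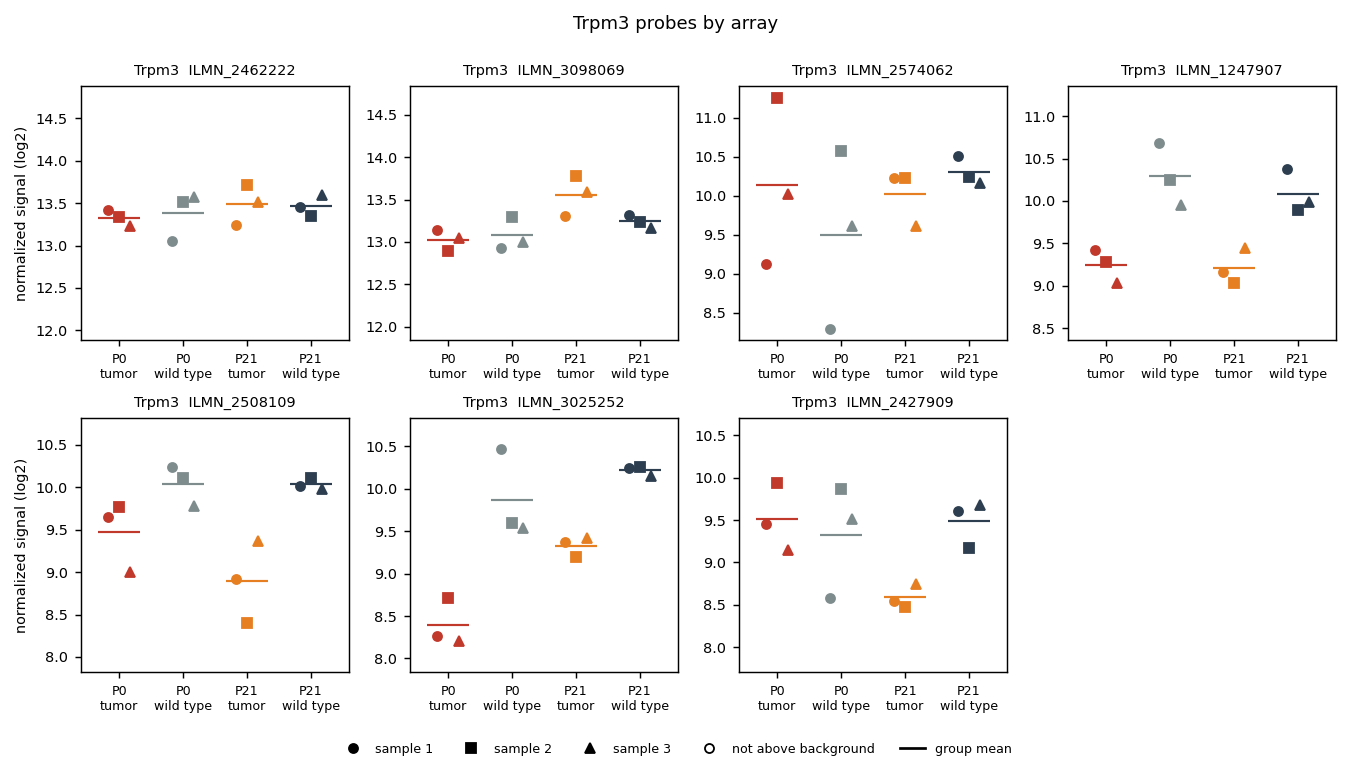
Normalized log2 signal of each of the 7 Trpm3 probes on each array, in P0 tumor, P0 wild-type, P21 tumor and P21 wild-type CP; symbols are samples 1 to 3, lines are group means, and each panel has its own axis. The 2 bright probes show overlapping groups, and ILMN_1247907 and ILMN_3025252 show tumors below wild-type CP at both ages.

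Clic6 had one probe, ILMN_2667635, among the brightest on the array. Its mean log2 signal was 15.43 ± 0.33 in P0 tumors and 15.64 ± 0.26 in P0 wild-type CP (SD, n = 3 each). It was 15.60 ± 0.10 in P21 tumors and 15.68 ± 0.10 in P21 wild-type CP. The groups overlapped at both ages, with differences of -0.20 at P0 (95% confidence interval -0.67 to 0.26, adjusted p = 0.619) and -0.08 at P21 (-0.54 to 0.38, 0.863). Its raw signals of 42233 to 57173 were 62.2% to 85.8% of the highest signal on the array, so close to the top of the scale that a difference could be compressed.

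The effect of genotype was then compared between the ages. Of the 15 probes, 2 had a deeper fall at P21 than at P0 in limma's interaction test and 0 had a shallower one (6 and 0 at an unadjusted p under 0.05), where 3.17% of all tested probes passed, 1.07% with the more negative effect at P21. Trpv4 ILMN_1231520 differed by -2.45 at P21 and -1.11 at P0, a change of -1.34 ± 0.30 (adjusted p = 0.0326). Aqp1 ILMN_2980663 differed by -2.79 at P21 and -1.48 at P0, a change of -1.31 ± 0.32 (0.0491). The Trpv4 call held in 12 of 22 alternatives (adjusted p from 0.0139 to 0.235) and the Aqp1 call in 8 of 20 (0.0187 to 0.145), and each was lost without most single arrays, P0 wild-type sample 1 (0.0512 and 0.0747) and P21 tumor sample 1 (0.0644 and 0.0976) among them. The other Aqp1 probes changed by -1.09 ± 0.41 (0.217) and -1.06 ± 0.33 (0.116), and Kcne2 by -1.06 ± 0.27 (0.057), which passed in 7 of 22 alternatives. For Trpm3 the changes ran from -1.08 to 0.59 and none passed, and Clic6 changed by 0.12 ± 0.30 (0.888).

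Aqp1 and Trpv4 took different courses with age within each genotype. In tumors, 4 of 15 channel probes were lower at P21 than at P0 and 1 was higher, where 16.5% of all tested probes passed, 8.13% lower and 8.36% higher. Groups did not overlap on 7 probes, 5 lower and 2 higher, against 34.3% of all tested probes, 17.8% lower. The lower ones were the 3 Aqp1 probes (-1.57 ± 0.29, -1.64 ± 0.23 and -2.19 ± 0.23, adjusted p = 0.0028, 0.000401 and 4.18e-05) and Kcne2 (-0.96 ± 0.19, 0.00448). The higher one was Trpm3 ILMN_3025252 (0.94 ± 0.25, 0.0238), and its call ended without any of P0 tumor samples 1 and 3 and P21 tumor samples 1, 2 and 3 (0.0517 to 0.0896). Trpv4 ILMN_1231520 was at 9.52 ± 0.17 log2 in P21 tumors and 9.75 ± 0.26 in P0 tumors (SD, n = 3 each) and did not pass (-0.23 ± 0.21, 0.534).

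In wild-type CP, 1 channel probe was lower at P21 than at P0 and 2 were higher, where 17.3% of all tested probes passed, 9.85% lower and 7.46% higher. Groups did not overlap on 5 probes, 2 lower and 3 higher, against 39.2% of all tested probes, 20.8% lower. Trpv4 rose with age, on ILMN_1231520 to 11.97 ± 0.15 log2 in P21 wild-type CP, against 10.86 ± 0.30 in P0 wild-type CP (1.11 ± 0.21, adjusted p = 0.00402). ILMN_2466284 also passed (2.76 ± 0.78, 0.0293), with a size that rests on P0 wild-type sample 1, and without that sample it was 1.53 and still passed (0.019). The call ended without any single P21 wild-type array (0.0762 to 0.0877). Aqp1 ILMN_2980663 fell by 0.88 ± 0.23 (0.0198), a call that ended without P0 wild-type sample 2 or 3 or P21 wild-type sample 1 or 2 (0.0569 to 0.0719), while the other Aqp1 probes did not pass (-0.48 and -0.58, 0.289 and 0.107). Kcne2 did not pass either (0.11 ± 0.19, 0.748). In these age comparisons the BeadChip changes with age.

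The channels have relatives in the same families, which were grouped into lists. A gene was represented in these lists by its brightest probe. Of 11 aquaporin genes, 5 were tested, of which 2 fell and 0 rose at P0 (of all genes tested, 9.93% passed, 5.46% lower and 4.47% higher). Besides Aqp1 the other was Aqp11, an aquaporin of intracellular membranes (-1.17 ± 0.29, adjusted p = 0.0245). At P21, 2 fell and 2 rose (of all genes, 16.6% passed, 6.66% lower and 9.91% higher). Aqp11 fell again (-1.03 ± 0.29, 0.0301), and Aqp4, the water channel of astrocytes, rose by 4.05 ± 0.71 (0.00185). Aqp4 ranged from 11.40 to 13.11 log2 in P21 tumors, against 8.36 to 8.64 in P21 wild-type CP. Aqp9, which also conducts glycerol, was not above background on any P21 wild-type array and was at least 2.09-fold higher in P21 tumors (0.00195). The bound sets the tumor mean against a floor for each wild-type array, its lowest detected signal or the Aqp9 signal if that was higher. The P0 fall of Aqp11 was lost in 5 of 23 alternatives, among them the one without P0 wild-type sample 1, and the P21 fall in 7 of 23, among them the one without P21 tumor sample 1.

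Over all genes tested, 9.93% passed at P0, 5.46% lower and 4.47% higher, and 16.6% at P21, 6.66% lower and 9.91% higher. In the KCNQ and KCNE list, Kcne2 was the only one of 5 tested genes to pass at either age, and at P0 none did without P0 wild-type sample 1 or P21 tumor sample 1. Of 15 inward rectifier potassium channel genes, 2 were tested and neither passed. The TRPV and TRPM list had 8 tested genes. Trpv4 was the only one to pass at P0. At P21 Trpv4 fell and 2 rose, Trpm5, a cation channel of taste cells (1.29 ± 0.27, adjusted p = 0.00635), and the magnesium channel Trpm6, at least 3.52-fold higher in tumors and not above background in P21 wild-type CP (0.000367). Without P0 wild-type sample 1, 3 rose at P21. Among 4 CLIC genes Clic3 fell at both ages, with 8.50 to 10.05 log2 in P0 tumors, against 10.83 to 12.15 in P0 wild-type CP, and 7.11 to 8.60 in P21 tumors, against 10.32 to 10.65 in P21 wild-type CP (-2.07 ± 0.46, 0.0149, and -2.69 ± 0.46, 0.00154). Clic4 rose at P21 (0.91 ± 0.26, 0.036), a call lost without any single P21 array.

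Of 15 tested genes for volume-regulated and other chloride channels and WNK kinases, 1 fell and 0 rose at P0 (of all genes, 9.93% passed, 5.46% lower and 4.47% higher). It was Wnk4, a kinase that controls chloride cotransport (-1.40 ± 0.25, adjusted p = 0.00409). At P21, 2 fell and 2 rose, where of all genes 16.6% passed, 6.66% lower and 9.91% higher. Wnk4 fell again (-1.81 ± 0.25, 0.000314), with 9.01 to 9.69 log2 in P21 tumors, against 11.02 to 11.43 in P21 wild-type CP, and so did Clns1a, a chaperone gene of spliceosome assembly (-0.64 ± 0.18, 0.0323). The chloride channel gene Clcn2 rose by 1.35 ± 0.26 (0.00397) and the kinase gene Wnk2 by 0.97 ± 0.24 (0.0174). Without P21 tumor sample 1 the rise of Wnk2 and the fall of Clns1a no longer passed. Of 13 tested genes for ion pumps, cotransporters and carbonic anhydrases, 1 fell and 1 rose at P0, both potassium chloride cotransporter genes. Slc12a4 fell by 1.85 ± 0.33 (0.00494), and Slc12a7 rose by 0.90 ± 0.26 (0.0468), a call that held in 10 of 23 alternatives and ended without P0 wild-type sample 1. At P21, 3 fell and 3 rose (2 and 3 without P21 tumor sample 1, 3 and 4 without P0 wild-type sample 1). The largest falls were those of Slc12a4 (-1.93 ± 0.33, 0.00177) and Car2, which makes bicarbonate from carbon dioxide (-1.26 ± 0.30, 0.0138), whose call ended without P21 tumor sample 2 or P21 wild-type sample 1. The largest rises were those of Atp1b2, a beta subunit of the sodium pump (1.57 ± 0.28, 0.0023), and Slc9a3r1, a scaffold for membrane transporters (0.83 ± 0.18, 0.00879). With members of the channel set included, medians of the lists ran from -0.38 to 0.05 at P0 and from -0.38 to 0.28 at P21. Over all genes they were -0.06 and -0.05. Without the members, list medians ran from -0.29 to 0.33 at P0 and from -0.51 to 0.80 at P21. Aquaporins then stood at 0.80 at P21, and TRPV and TRPM genes at 0.33 at P0 and 0.47 at P21.

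**Figure D4:**
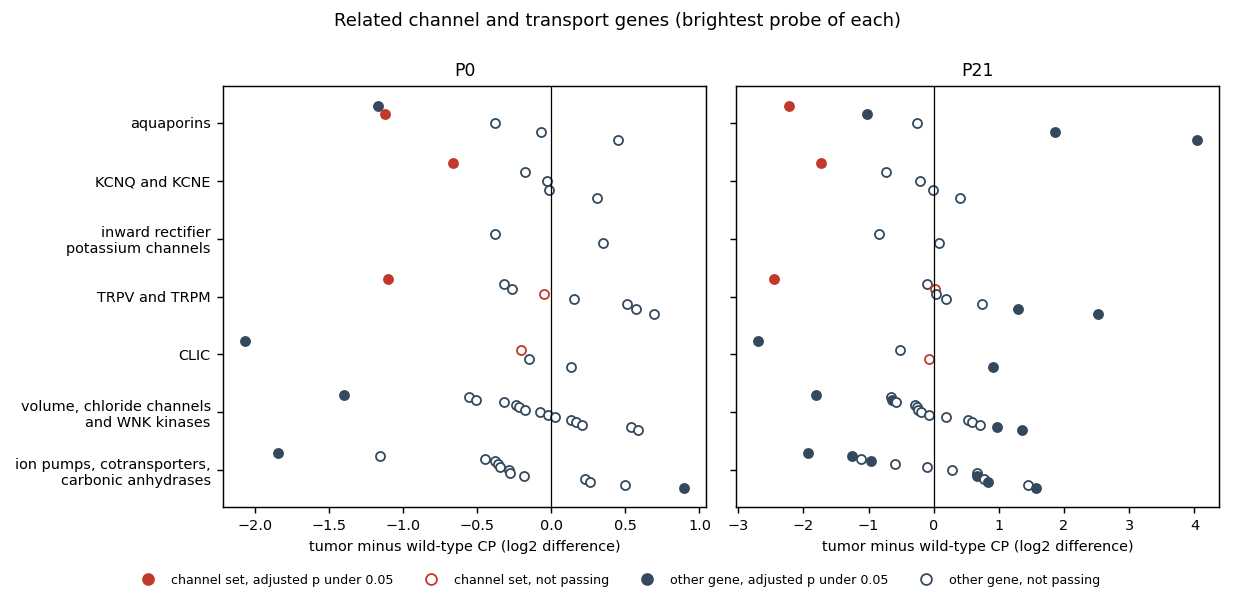
Log2 difference of tumor minus wild-type CP for the brightest probe of each tested gene in 7 channel and transport lists, at P0 (left) and P21 (right), with members of the channel set in red and filled points passing an adjusted p of 0.05. Aqp1, Kcne2 and Trpv4 are filled left of 0 at both ages beside Aqp11, Clic3, Wnk4 and Slc12a4, and at P21 Aqp4 lies farthest to the right at 4.05.

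Markers of the epithelium and of other cells moved beside the channels. Of 18 tested CP epithelial markers outside the set, 3 fell and 0 rose at P0 (Htr2c, Ace and Cldn2, -1.37, -1.13 and -0.78), and 5 fell and 0 rose at P21 (Folr1, Htr2c, Slc29a4, Ace and Steap1, -0.74 to -1.63). Of all genes tested, 9.93% passed at P0, 5.46% lower and 4.47% higher, and 16.6% at P21, 6.66% lower and 9.91% higher. Without P21 tumor sample 1, 4 fell at P0 and 3 at P21, and without P0 wild-type sample 1, 4 fell at P0 and 6 at P21. The summed normalized signal of the 18 markers was 308989 to 310696 in P21 tumors, against 368524 to 378542 in P21 wild-type CP. It was 246294 to 281173 in P0 tumors, against 260468 to 320227 in P0 wild-type CP. At P21 the highest tumor sum was thus below the lowest wild-type sum, and at P0 the ranges overlapped.

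Other lists were higher in P21 tumors, where of all genes tested 16.6% passed, 6.66% lower and 9.91% higher. Of 6 astrocyte markers, which include Aqp4, 4 rose and 1 fell, with sums of 26793 to 62583 in P21 tumors, against 5987 to 7283 in P21 wild-type CP. Of 9 macrophage markers 5 rose and 0 fell, with sums of 6587 to 11299, against 3590 to 3809, and Lyve1 was not above background in P21 wild-type CP. Of 8 pericyte and smooth muscle markers 3 rose and 1 fell, with sums of 13935 to 27466, against 2977 to 5268, and Tagln was detected in P21 tumors alone. Without P21 tumor sample 1, 4 of these 8 rose and 0 fell. Of 9 fibroblast markers 4 rose and 2 fell, with sums of 47284 to 55069, against 31451 to 37606. Among 9 endothelial genes 1 rose, and 0 of 6 neuron, 0 of 4 red blood cell and 1 of 6 oligodendrocyte lineage genes passed (Pdgfra, which fell and also stands in the fibroblast list). Without P21 tumor sample 1, 5 of the 6 oligodendrocyte lineage genes fell. Of 7 cell division genes 2 rose, with sums of 1512 to 2166 in P21 tumors, against 1258 to 1378 in P21 wild-type CP, and without that sample 4 rose. The neuron genes Tubb3 and Snap25 were not detected on any array.

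At P0, 6 of 7 cell division genes rose, with sums of 17178 to 19950 in P0 tumors, against 2904 to 4711 in P0 wild-type CP. Of all genes tested, 9.93% passed at P0, 5.46% lower and 4.47% higher. In the other lists at P0, 2 fibroblast genes rose and 2 fell (1 and 1 without P0 wild-type sample 1), 1 pericyte gene (Notch3) rose, and the oligodendrocyte gene Pdgfra fell. The macrophage and astrocyte lists each had 1 gene that rose and 1 that fell, and without that sample the falls did not pass. No endothelial, neuron or red blood cell gene passed at P0 by limma (1 and 1, 0 and 0, and 0 and 0 rose and fell at an unadjusted p under 0.05). In P0 tumors the astrocyte sums were 23644 to 31564, against 16993 to 18812 in P0 wild-type CP. The part of these cells in the channel differences was not tested. Without P21 tumor sample 1 the P21 differences of Aqp1, Trpv4 and Kcne2 on their brightest probes were -2.24, -2.39 and -1.67, against -2.22, -2.45 and -1.73 with it.

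The genes whose signal followed each channel most closely over the 12 arrays were found by Pearson correlation of brightest probes, among 12378 other genes. These correlations describe 12 arrays that share genotype and age groups. Closest to Aqp1 were Cdkn1c, which encodes a cell cycle inhibitor (r = 0.983), Tuft1 (0.979) and Tox (0.977). Closest to Trpv4 were Hyal3, a hyaluronidase gene (0.982), D930048N14Rik (0.977) and Serinc2 (0.967). Closest to Kcne2 were Dpep1, a membrane dipeptidase gene that also stands in the fibroblast list (0.985), the nuclear receptor gene Esrrb (0.972) and Lhb, which encodes a subunit of luteinizing hormone (0.967). All 9 fell at P21, from -1.39 for Cdkn1c (adjusted p = 0.000301) to -2.99 for Dpep1 (4.26e-05), and 8 of them, all but Cdkn1c, fell at P0. The 9 were picked for following channels that fell on the same arrays, so their falls follow from the choice and are no separate result. For Trpm3 and Clic6 the closest genes had lower r, at most 0.855 (Diablo) and 0.8897 (Mkln1), and none of these passed in a tumor comparison.

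The genes next to the members were looked up in the RefSeq table of assembly GRCm38.p6. Cdkn1c, the gene most like Aqp1 on these arrays, is the neighbour of Kcnq1 on its one side and Trpm5 on the other, and at P21 these moved in opposite directions (-1.39, adjusted p = 0.000301, and 1.29, 0.00635). Kcnq1ot1, the antisense transcript within Kcnq1, did not pass (0.35 at P0, 0.488, and -0.19 at P21, 0.725). The neighbours of Trpv4 also moved apart at P21, Fam222a by -1.52 (0.00108) and Gltp, a glycolipid transfer protein gene, by 0.97 (0.00661), while neither passed at P0. Smim11 beside Kcne2 did not pass (-0.16 at P21, 0.893), nor did 2410124H12Rik beside Clic6 (0.04, 0.9705).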

How the data were processed

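RNA of 12 pooled tissue samples was profiled on Illumina BeadChips. It was isolated in Trizol, passed over columns with DNase I and amplified as biotin-labelled cRNA, per the labels' protocols. The deposited scanner table holds, per the file headers, the mean intensity of each probe's beads, linear and without normalization, next to its detection p-value on that array. No software is named. A second deposited table holds the authors' normalized intensity (Spearman 1 with the scanner values of its own array and at most 0.936 with another). Its method is not stated, so it served as an alternative.

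Background was corrected with normexp in limma 3.58.1 (R 4.3.3), which inferred the controls from the detection p-values, and an offset of 16, followed by quantile normalization and log2. A probe was tested where its detection p was under 0.05 on at least 3 arrays and it had 1 gene symbol (20021 probes). Symbols came from GEO's platform annotation (34885 probes with 1 symbol, 18 with several, 10378 not listed) and were updated through Entrez IDs for 34807 and accessions for 11, and 67 kept the annotation's symbol. Every probe of a member was tested by itself.

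One mean per group was fitted over 12 arrays (residual degrees of freedom 8, prior 4.27), with Benjamini-Hochberg adjustment over all tested probes and a threshold of 0.05. Named genes were all members, the 3 genes most correlated with each, their neighbours, and the 2 largest passing rises and falls of each related list. The calculation was tested on simulated data. Members and lists were chosen with earlier results of these data known. Samples of the same number deviated together at P0 for numbers 1 and 2 (r = 0.428 and 0.45) but not 3 (0.0764), and not at P21 (-0.0477, -0.0463 and -0.135), so the numbers were not taken as pairs. The alternatives changed the background correction, normalization, offset, source table, probe filter, probe summary, arrays fitted and block, and left out each array in turn.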

Additional observations from a re-analysis of the deposited data

Results flagged for a closer look

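The tumor effects of 2 channel probes differed between the ages in limma's interaction test. For Trpv4 ILMN_1231520 the change was -1.34 log2 (adjusted p = 0.0326): tumors differed from wild-type CP by -2.45 at P21 and by -1.11 at P0, and wild-type signals were higher at P21 than at P0. For Aqp1 ILMN_2980663 it was -1.31 (adjusted p = 0.0491), with -2.79 at P21 and -1.48 at P0, and tumor signals were lower at P21 than at P0. The 2 dimmer Trpv4 probes changed by -2.81 ± 1.44 (0.399) and -2.36 ± 1.10 (0.343), with wide errors from P0 wild-type sample 1. Age and BeadChip cannot be told apart here, though tumor and wild-type arrays of an age shared a BeadChip.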

How the results depend on the processing

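Over the 15 channel probes and 5 comparisons, the 25 values that passed kept their sign in all 534 alternative values, and 77 of these values, for 13 of the 25, no longer passed. Of the 50 values that did not pass, 18 changed sign in 47 of 1036 alternative values and 8 passed in 34. The P0 count of 7 passing probes became 2 with only the 6 arrays compared, and 4 to 6 with an array left out. The P21 count of 8 became 5 to 11 with an array left out. The interaction count of 2 became 0 with median scaling, 1 with the replicate number as a block, and 0 to 3 with an array left out. The count of 3 for age in wild-type CP ran from 1 to 4, and that of 5 for age in tumors from 4 to 6, with an array left out. In counts of genes, by the brightest probe or the mean of probes, 3 and 2 of 5 passed at P0, 3 and 3 at P21, 2 and 1 in the interaction, 1 and 1 with age in wild-type CP, and 2 and 2 with age in tumors. In the main fit, by the brightest probe, 9.93% of all genes passed at P0 and 16.6% at P21. Gene shares were not taken for the other comparisons. Of all tested probes, 3.17% passed in the interaction, 17.3% between P0 and P21 in wild-type CP, and 16.5% in tumors. Fewer arrays or features enter the fits on 6 arrays, with an array left out or by gene. The 1818 probes passing at P0 overall became 582 with only 6 arrays and 897 to 2202 with an array left out, the 2967 at P21 became 4669 and 1851 to 3760, and the 634 of the interaction became 352 among probes detected on all 12 arrays and 340 to 830. The interaction needs all 4 groups, so it has no fit on 6 arrays, and the block was not run for the age comparisons. With the replicate block 6 channel probes passed at P0 and 10 at P21. The limits are 3 pools per group, BeadChips that each hold 1 age, and signals near the top of the scale for Clic6 and the brightest Aqp1 probe.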
